A study of Homo sapiens with 12 samples.

Results

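Of the 39 protein-coding HOX genes in RefSeq, 10 were listed in the deposited tables of DU145 RNA, 7 in the table of RSL3 against DMSO and 3 in the table of oeATOH8 against oeCTRL. They are the genes whose symbol is HOXA, HOXB, HOXC or HOXD followed by a number, among 1810 rows of the first table and 1424 rows of the second, 3234 rows in all. No HOX gene was in both tables. The other 29, all 9 HOXC genes among them, were not listed in either table and were not analysed here. DU145 is an established human prostate cancer cell line. There were 12 RNA libraries, 3 in each of 4 groups. One group received RSL3, which blocks GPX4 and so sets off ferroptosis (cell death by lipid peroxidation), for 24 h, and its counterpart DMSO, to look for regulators of that death. The oeATOH8 group overexpressed ATOH8, a transcription factor of the helix-loop-helix class, and oeCTRL was its control. The labels give no construct, clone or selection for the overexpressing cells.

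HOX genes encode transcription factors that bind DNA through a homeodomain and specify position along the body axis. They lie in clusters named A to D, in which neighbouring genes are transcribed from the same strand and are switched on in the order in which they lie. Low-numbered genes act towards the head. The highest-numbered genes act in the hindgut, the limb ends and the urogenital tract, where HOXA13 takes part in prostate development. HOX proteins bind DNA together with cofactors of the PBX and MEIS families. Their clusters are kept silent by Polycomb complexes, opened by trithorax complexes and induced by retinoic acid.

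The part of the homeobox that encodes the DNA-reading helix is shown for 6 of the 10 genes, because it is what the family shares beyond its names. Each line gives 12 of the 60 homeobox codons (bases 127 to 162, coding strand, GENCODE v29 transcripts), and capitals mark bases that differ from HOXB7.
HOXA2: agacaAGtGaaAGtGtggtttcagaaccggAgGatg
HOXA5: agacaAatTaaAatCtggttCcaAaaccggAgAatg
HOXA13: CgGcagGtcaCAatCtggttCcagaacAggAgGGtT
HOXB6: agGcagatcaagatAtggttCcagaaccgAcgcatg
HOXB7: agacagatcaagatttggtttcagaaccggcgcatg
HOXB9: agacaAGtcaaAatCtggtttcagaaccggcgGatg
Over the whole homeobox, the 45 pairs among all 10 genes were identical at 47.8% to 88.9% of bases. The closest pair was HOXB6 and HOXB7, and the longest identical run in any pair was 51 bases. Of the genes shown, HOXA13 differed most from HOXB7 in the printed stretch, at 12 of its bases.

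Sequence shared with other genes bears on which reads could be assigned. Of all 75-base stretches in their transcripts, HOXA2, HOXA5, HOXB7, HOXB8, HOXB9 and HOXD9 shared 0 with any other gene, on either strand. HOXA13 shared 0.259%, with HOTTIP, and HOXB5 shared 0.0508%, with HOXB-AS3. HOXB6 shared 21.4%, of which 13.6% was with HOXB3 and 7.81% with HOXB-AS3. HOXD1 shared 51.9%, of which 48.1% was with AC009336.3 on the opposite strand and 3.73% with HAGLR. Strandedness is not given in the sources used here. Reads from the parts that HOXD1 and HOXB6 share with antisense partners therefore cannot be told apart from the partners' reads. HOXB3 lies on the same strand as HOXB6, so reads from the part they share could not be told apart by strand either.

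With RSL3, 6 of the 7 listed HOX genes were lower and 1 was higher. Those lower were the 5 neighbouring genes HOXB5 to HOXB9 and HOXD1, and HOXD9 was higher. All 7 passed the limma test with an adjusted p under 0.05 over the 1732 genes tested, of which 82% passed. By direction, 38.9% of the tested genes passed as lower and 43.1% as higher. The table appears to hold only genes that the authors had called, and the passing of its HOX genes is near the background. Levels below are normalised read counts (reads divided by the authors' size factor for the library), and log2 fold changes are on log2(count + 1), RSL3 over DMSO. In bulk RNA, fewer cells that express a gene and less RNA per cell cannot be told apart.

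The HOXB run lies on chromosome 17 (GRCh38), minus strand, and spans 35.1 kb of a 200.2 kb cluster. HOXB5 (48591257 to 48593779), which in the mouse acts in the vagal neural crest and the shoulder, had 117, 125 and 159 counts in the RSL3 libraries and 265, 183 and 258 in the DMSO libraries. Every RSL3 value was below every DMSO value. HOXB5 fell by 0.81 on the log2 scale (SE 0.25, limma adjusted p = 0.036).

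HOXB6 (48595736 to 48604986), which is expressed in developing blood and limb in the mouse, had 507, 401 and 396 counts with RSL3 and 596, 722 and 712 with DMSO. The groups did not overlap, and the 2 closest values were those of the libraries numbered 1. It fell by 0.64 (SE 0.19, limma adjusted p = 0.0346). HOXB7 (48607232 to 48611017), which is often raised in breast cancer, had 466, 371 and 389 counts with RSL3 and 645, 532 and 579 with DMSO. Again no value overlapped, and HOXB7 fell by 0.52 (SE 0.19, limma adjusted p = 0.0421).

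HOXB8 is known for holding myeloid progenitors in an immature state when it is overexpressed. Its row (48612346 to 48619531) extends 4239 bases beyond the RefSeq gene. It had 82.5, 105 and 76.0 counts with RSL3 and 92.3, 232 and 223 with DMSO. The groups overlapped, because DMSO replicate 1 lay below RSL3 replicate 2. The fitted change was -0.95 (SE 0.39, limma adjusted p = 0.0496). HOXB9 (48621156 to 48626358), which patterns the thorax and the mammary gland with its paralogs in the mouse, had 569, 415 and 449 counts with RSL3 and 544, 1018 and 1009 with DMSO. These groups also overlapped, since RSL3 replicate 1 was above DMSO replicate 1. The fitted change was -0.80 (SE 0.28, limma adjusted p = 0.0416).

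**Figure D1:**
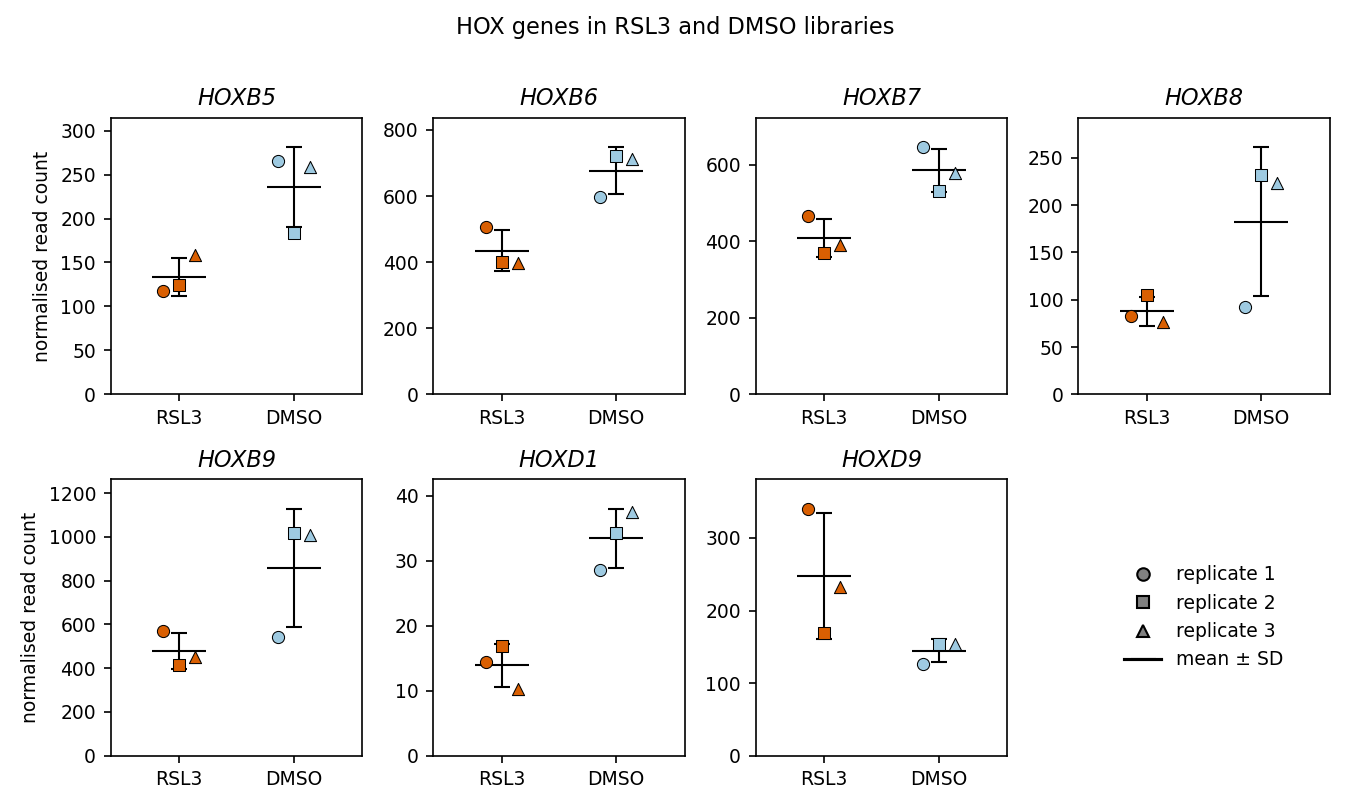
Normalised read counts (vertical axes, each starting at 0) of the 7 HOX genes in the 3 RSL3 and the 3 DMSO libraries, with symbols for replicate number and bars for the mean ± SD. HOXB5, HOXB6, HOXB7 and HOXD1 are lower in every RSL3 library, HOXD9 is higher in every RSL3 library, and HOXB8 and HOXB9 overlap through replicate 1.

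Summed over HOXB5 to HOXB9, the libraries held 1742, 1416 and 1469 counts with RSL3 and 2142, 2688 and 2782 with DMSO, or 1542 ± 175 and 2537 ± 345 (SD, n = 3 each). HOXB6 took 27.0% to 29.1% with RSL3 and 25.6% to 27.8% with DMSO. The share of HOXB7 was 26.2% to 26.8% with RSL3, and 30.1%, 19.8% and 20.8% in DMSO replicates 1, 2 and 3. HOXB9 took 29.3% to 32.7% with RSL3 and 25.4% to 37.9% with DMSO, lowest in DMSO replicate 1. The 95% intervals of the 5 log2 fold changes all overlapped, from -0.95 to -0.09 for HOXB7 and from -1.84 to -0.05 for HOXB8. Overlap of intervals does not test a difference between genes, and whether the genes of the run differed in size of change was not tested. HOXB13, HOXB4, HOXB3, HOXB2 and HOXB1, on either side of the run, were not listed and were not analysed here.

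**Figure D2:**
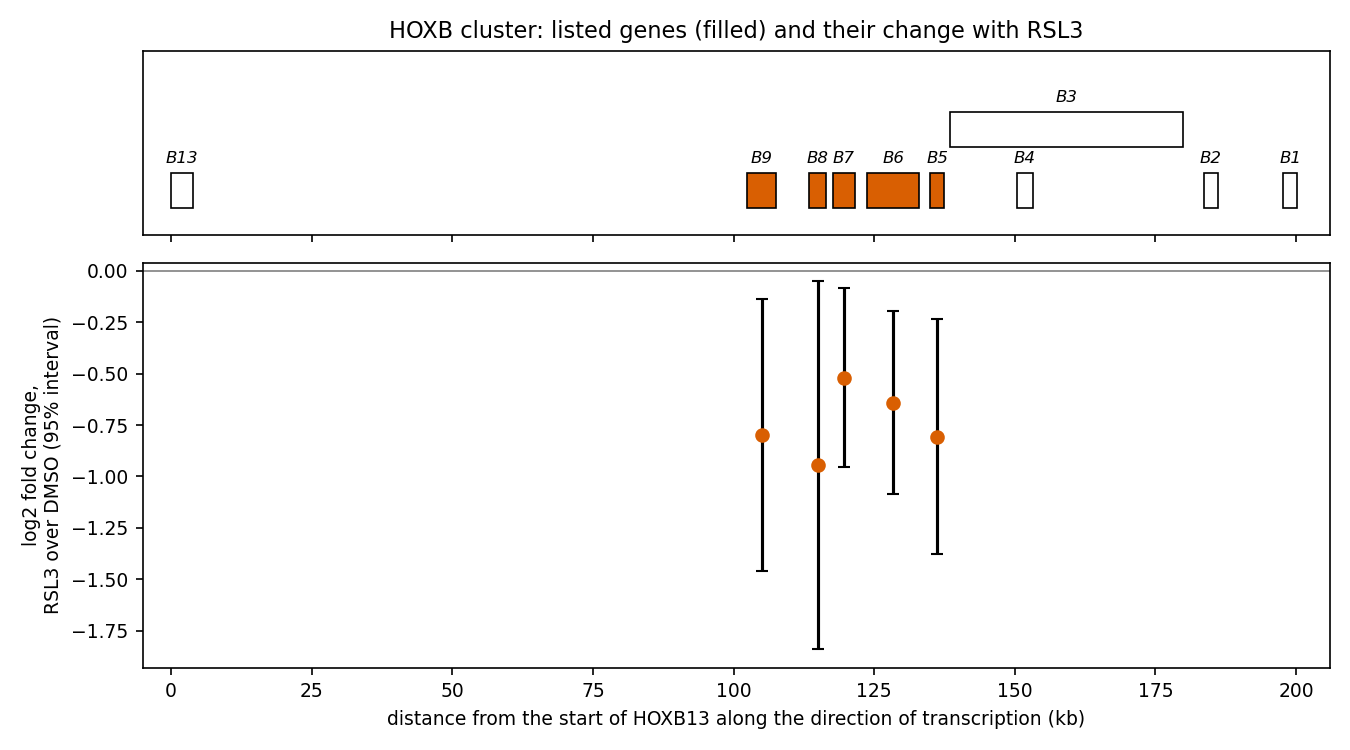
The HOXB cluster drawn to scale, with distance in kb from the start of HOXB13 on the horizontal axis, listed genes filled and the others open; below, the log2 fold change of each listed gene, RSL3 over DMSO, with its 95% interval. The 5 listed genes stand side by side, and their intervals lie below 0 and overlap each other.

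The antisense transcript HOXB-AS3, which starts beside HOXB5 and runs through HOXB6 on the opposite strand, was listed too. It had 27.5, 13.1 and 16.9 counts with RSL3 and 52.8, 54.2 and 42.8 with DMSO, a fall of 1.39 (SE 0.36, limma adjusted p = 0.0264). Its exons cover 425 bases of HOXB6 exons and 73 bases of HOXB5 exons. The gene SKAP1, 98.3 kb from the cluster, was also lower (log2 fold change -1.10, SE 0.29, limma adjusted p = 0.0279). It encodes an adaptor of T-cell signalling.

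The HOXD genes lie on chromosome 2, plus strand. HOXD1 (176188668 to 176190907), which in the mouse shapes pain-sensing nerve circuits, was the weakest member, with 10, 18 and 11 reads in the RSL3 libraries and 26, 45 and 43 in the DMSO libraries. As normalised counts these were 14.5, 16.9 and 10.3 with RSL3 and 28.6, 34.4 and 37.5 with DMSO, without overlap. HOXD1 fell by 1.23 (SE 0.34, limma adjusted p = 0.0298), with an interval that overlapped those of the HOXB genes.

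HOXD9 (176122719 to 176124937), which patterns the limb and the lumbar spine in the mouse, had 340.3, 169 and 233 counts with RSL3 and 126, 153 and 154 with DMSO. It was the one HOX gene that was higher, and RSL3 replicate 1 was its highest library. HOXD9 rose by 0.72 on the log2 scale (SE 0.29, limma adjusted p = 0.0494). Scaled by TMM over the listed genes, its change was 0.43 (limma adjusted p = 0.145), while the 6 lower genes still passed and HOXB7 had -0.81. That scaling moved the median gene by -0.29, and 30.0% of its passing genes were higher, against 52.6% here.

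The libraries numbered 1 stood apart in both the RSL3 and the DMSO group. Chi-square per degree of freedom between replicates, which is 1 for counting error alone, was 58.1 to 95.6 for pairs with replicate 1, against 1.78 between RSL3 replicates 2 and 3 and 1.63 between DMSO replicates 2 and 3. In the pair numbered 1, the log2 ratio of RSL3 over DMSO was 0.06 for HOXB9, -0.16 for HOXB8 and -0.23 for HOXB6. In the pairs numbered 2 and 3 it was -1.29 and -1.17 for HOXB9, -1.14 and -1.54 for HOXB8, and -0.85 and -0.84 for HOXB6. The decrease of HOXB9 therefore did not hold within the pair numbered 1. HOXB7 was steady over the pairs, at -0.47, -0.52 and -0.57, and HOXB5 fell most in the pair numbered 1, at -1.17 against -0.55 and -0.70. HOXD9 differed likewise, at 1.42 against 0.14 and 0.59. In DMSO, replicate 1 held 40.5% of the mean HOXB8 count of replicates 2 and 3, and 53.7% of that of HOXB9. Whether the pairs differed was not tested.

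**Figure D3:**
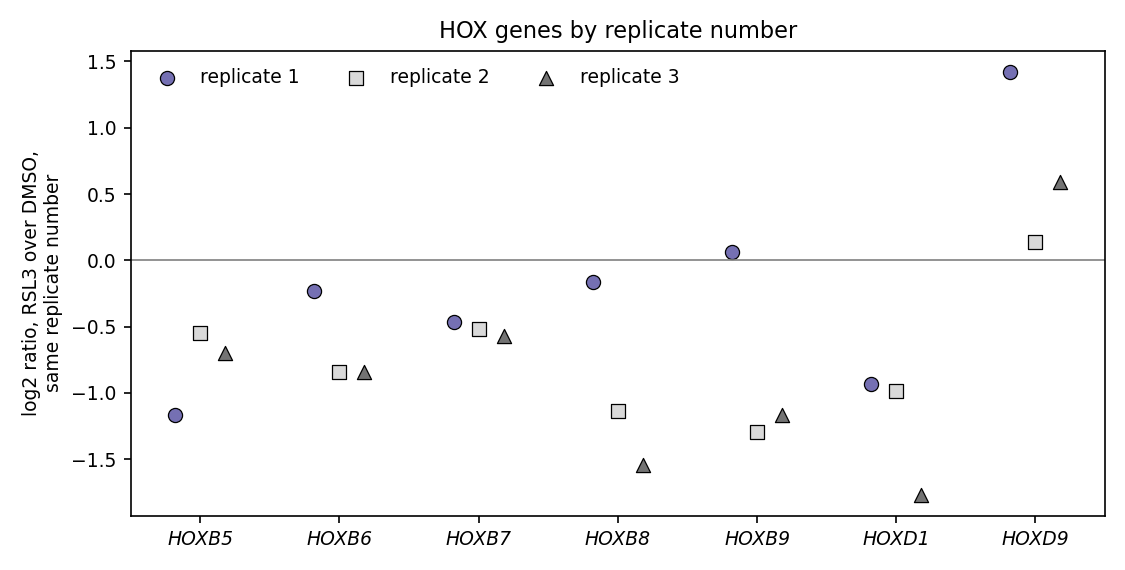
Log2 ratio of RSL3 over DMSO (vertical axis, log2 of count + 1) for libraries of the same replicate number, for each of the 7 HOX genes. HOXB7 has 3 like values, HOXB9 is at 0.06 in the pair numbered 1 and below -1 in the others, and HOXD9 is highest in the pair numbered 1.

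With replicate 1 left out of both groups all 7 HOX genes passed, but then the spread came from replicates that were nearly alike. In that run 1713 of the 1732 tested genes passed. Leaving out DMSO replicate 1 left 5 of the 7 (HOXB7 and HOXD9 missed the threshold). Leaving out RSL3 replicate 1 left 5 (HOXB8 and HOXD9 missed the threshold). Of all tested genes, 1445 and 975 passed in these runs. The log2 fold change of HOXD9 was then 0.46 without RSL3 replicate 1 and 0.36 without replicate 1 of both groups, where that of HOXB9 was -1.23. Leaving out DMSO replicate 2, DMSO replicate 3, RSL3 replicate 2 or RSL3 replicate 3 left 0 by limma. In the same order, 6, 8, 330 and 310 of all tested genes passed, so the loss was not particular to the HOX genes. By limma, the unadjusted p was under 0.05 for 3 HOX genes without DMSO replicate 2 and 1 without DMSO replicate 3. It was so for 5 without RSL3 replicate 2 and 3 without RSL3 replicate 3. Of the 1732 tested genes, 716, 706, 1325 and 1314 were under 0.05 in these runs, in the same order. When the adjustment ran over all 59792 annotated genes, 0 of the 7 passed by limma. It was likewise 0 by edgeR or DESeq2 on the recovered reads. All 7 had an unadjusted p under 0.05 by each tool, but so did most of the 1732 tested genes. These were 1554 by limma, 1636 by edgeR and 1727 by DESeq2. No alternative run turned the direction of a HOX gene. Groups did not overlap for 4 lower HOX genes and 1 higher one, against 87% of the tested genes (37.6% lower and 49.4% higher).

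Per kilobase of exon, the HOX genes stood in one order with RSL3 and in another with DMSO. With RSL3 the mean normalised counts per kb were 268 for HOXB7, 185 for HOXB9, 167 for HOXB6, 132 for HOXD9, 65.4 for HOXB5, 42.8 for HOXB8 and 7.04 for HOXD1. With DMSO they were 383 for HOXB7, 332 for HOXB9, 259.9 for HOXB6, 115 for HOXB5, 89.0 for HOXB8, 77.4 for HOXD9 and 17.0 for HOXD1. Several neighbours in the DMSO order overlapped over libraries: HOXB7 (348 to 422) with HOXB9 (211 to 394), HOXB9 with HOXB6 (229 to 277), HOXB5 (89.8 to 129.8) with HOXB8 (45.0 to 113), and HOXB8 with HOXD9 (67.6 to 82.6). With RSL3, HOXB9 (161 to 220.5) overlapped HOXB6 (152 to 195), and HOXB6 overlapped HOXD9. In DMSO, HOXB6 and HOXB5 did not overlap, nor did HOXD9 and HOXD1. HOXD9 stood above HOXB5 and HOXB8 with RSL3 (90.3 to 182, without overlap) and below both with DMSO. The place of HOXB8 in both orders is less certain. Its row extends 4239 bases beyond the RefSeq gene, so the exon length used may not match what was counted.

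With ATOH8 overexpression, 3 HOXA genes were listed: HOXA13 and HOXA5 fell and HOXA2 rose. The ATOH8 gene itself had 76508, 72569 and 76043 reads in the oeATOH8 libraries and 13, 10 and 4 in the oeCTRL libraries. All 3 HOX genes passed edgeR's quasi-likelihood test at an adjusted p under 0.05, as did 100% of the 1424 tested rows, 58.6% as lower and 41.4% as higher. Their passing is therefore no more than the background. They also passed with all 75204 annotated genes and loci counted as tests, where 82% of the rows did. No listed row lay between a log2 ratio of -1 and 1, so smaller changes of other HOX genes could not be seen. Replicates were uneven here too. Chi-square per degree of freedom was 6.34 to 9.21 between oeCTRL replicates. In oeATOH8 it was 39.1 between replicates 1 and 2 and 29.5 between replicates 1 and 3, against 12.8 between replicates 2 and 3. The 3 genes lie on chromosome 7, minus strand, with coordinates from GENCODE v29 (GRCh38).

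HOXA13 (27193503 to 27200106) acts in the distal limb and the genital tract, and its loss causes hand-foot-genital syndrome. It had 19, 7 and 14 reads in the oeATOH8 libraries and 100, 123 and 148 in the oeCTRL libraries. Scaled, these were 13.1 ± 5.66 in oeATOH8 and 125.5 ± 27.7 in oeCTRL (SD, n = 3 each). The highest oeATOH8 library was far below the lowest oeCTRL library. HOXA13 fell by 3.24 on the log2 scale (SE 0.37, edgeR adjusted p = 7.20e-06, or 0.00038 with all genes counted as tests). It ranked 17th by size among the 835 lower rows of its table.

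HOXA5 (27141052 to 27143668), needed for the trachea and lung in the mouse and able to activate the p53 gene in breast cancer cells, had 110, 132 and 125 reads in oeATOH8 and 305, 216 and 214 in oeCTRL. Again the groups did not overlap, and oeCTRL replicate 1 was the highest library. HOXA5 fell by 1.02 (SE 0.20, edgeR adjusted p = 0.000425), which placed it 809th of 835 lower rows, close to the smallest change listed. With DESeq2 size factors over the listed genes, its change was -0.12 (edgeR adjusted p = 0.592). That scaling moved the median row by 0.91, and 58.5% of its passing rows were higher, against 41.4% here.

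HOXA2 (27100354 to 27102811), which specifies the second branchial arch, including the outer ear, had 128, 113 and 162 reads in oeATOH8 and 62, 44 and 61 in oeCTRL. Every oeATOH8 library was above every oeCTRL library. HOXA2 rose by 1.24 (SE 0.26, edgeR adjusted p = 0.000695), near the median of 1.24 over the 589 higher rows. With DESeq2 size factors it was 2.14. The 3 genes of the HOXA cluster thus had no common direction. All 3 had groups that did not overlap, as did 99.6% of the rows (58.3% lower and 41.4% higher).

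**Figure D4:**
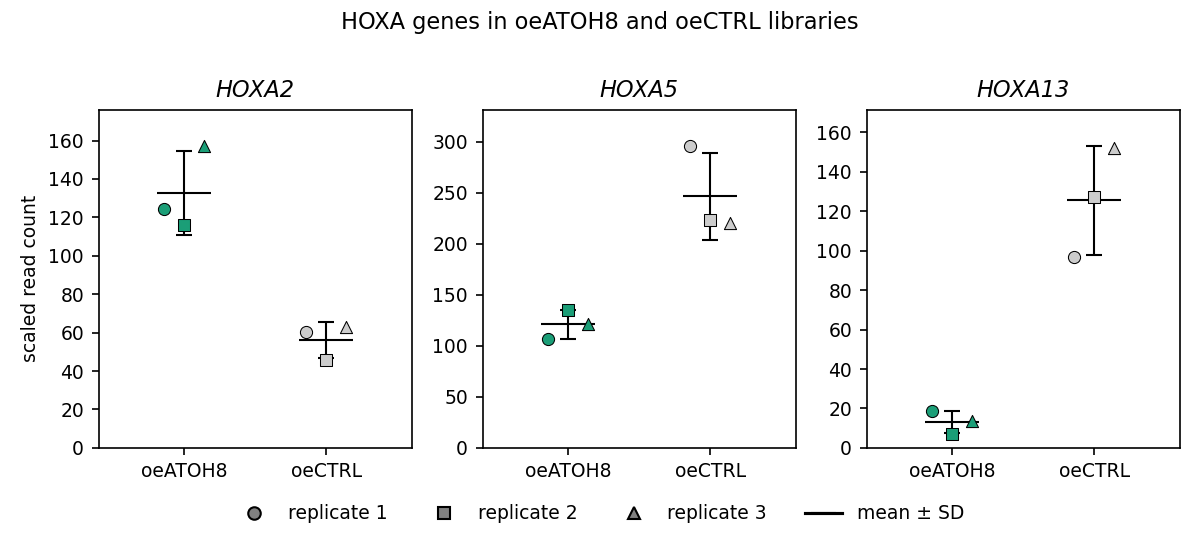
Scaled read counts (vertical axes, each starting at 0) of HOXA2, HOXA5 and HOXA13 in the 3 oeATOH8 and the 3 oeCTRL libraries, with symbols for replicate number and bars for the mean ± SD. HOXA13 averages 13.1 in oeATOH8 and 125.5 in oeCTRL, HOXA5 is also lower in oeATOH8, and HOXA2 is higher.

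Per kilobase of exon, the mean scaled counts in oeATOH8 were 71.0 for HOXA5, 53.9 for HOXA2 and 2.57 for HOXA13. In oeCTRL they were 144 for HOXA5, 24.7 for HOXA13 and 22.8 for HOXA2. HOXA13 and HOXA2 overlapped in oeCTRL, at 19.1 to 29.9 and 18.5 to 25.5 per kb. In oeATOH8 they stood far apart, at 1.41 to 3.63 for HOXA13 and 47.2 to 63.9 for HOXA2.

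**Figure D5:**
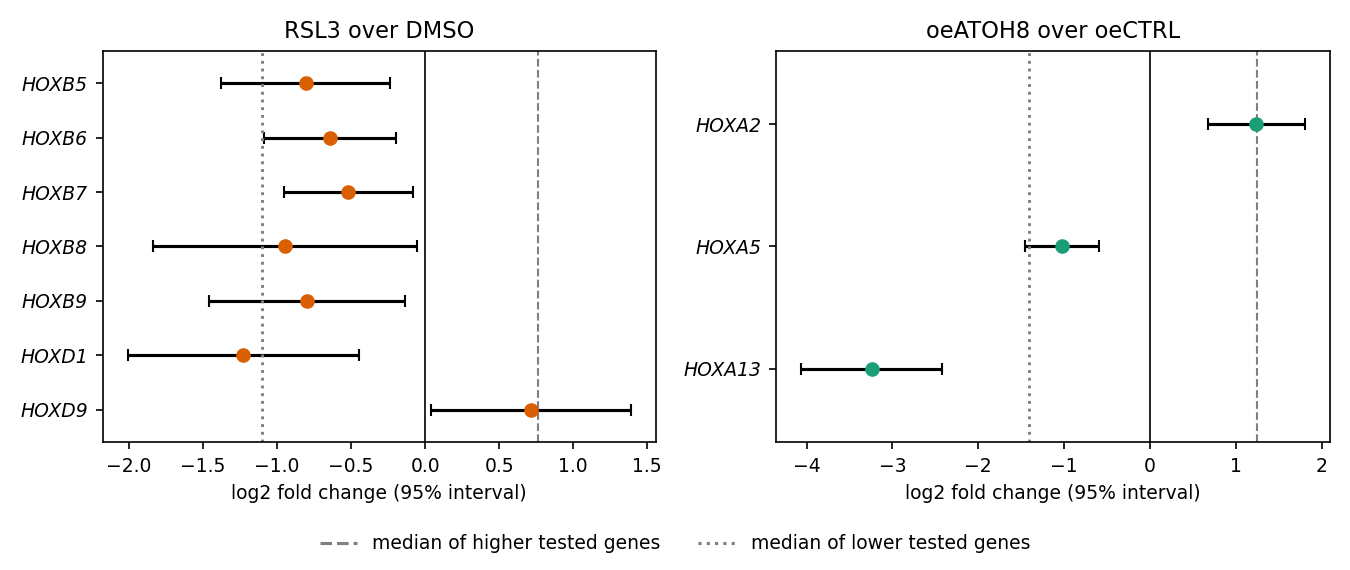
Log2 fold changes of the 10 HOX genes with 95% intervals (horizontal axes), RSL3 over DMSO on the left and oeATOH8 over oeCTRL on the right; the lines mark the medians of all tested genes that were higher (0.76 and 1.24) and lower (-1.10 and -1.41). HOXA13 lies beyond the median of lower rows, and the HOXB genes lie between that median and 0.

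Against the rest of their tables, the HOX genes had a median log2 fold change of -0.80 over 7 genes with RSL3, where all 1732 tested genes had 0.51. With oeATOH8 it was -1.02 over 3 genes, where all 1424 had -1.10. A median over both directions depends on how many genes went each way. With RSL3 these were 929 higher and 803 lower of the tested genes, and 1 higher and 6 lower of the HOX genes. Among lower genes alone, the medians were -0.80 for the 6 HOX genes and -1.10 for the 803 tested genes with RSL3.

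ATOH8 belongs to a class of factors that bind E-boxes, CANNTG, and it was itself higher in the RSL3 libraries (358, 429 and 470.2 counts, against 26.4, 35.1 and 40.1 with DMSO). The promoters of HOXA13, HOXA2 and HOXD1, which fell, rose and fell, are therefore shown with E-boxes in capitals. The 250 bases before the RefSeq start (GRCh38.p14) are given on the coding strand.
HOXA13, chr7:27200092-27200341, minus strand: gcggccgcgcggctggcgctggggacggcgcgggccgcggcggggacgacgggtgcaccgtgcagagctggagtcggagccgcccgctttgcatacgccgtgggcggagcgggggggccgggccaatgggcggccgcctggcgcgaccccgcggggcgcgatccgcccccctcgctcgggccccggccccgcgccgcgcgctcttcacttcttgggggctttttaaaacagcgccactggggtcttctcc
HOXA2, chr7:27102684-27102933, minus strand: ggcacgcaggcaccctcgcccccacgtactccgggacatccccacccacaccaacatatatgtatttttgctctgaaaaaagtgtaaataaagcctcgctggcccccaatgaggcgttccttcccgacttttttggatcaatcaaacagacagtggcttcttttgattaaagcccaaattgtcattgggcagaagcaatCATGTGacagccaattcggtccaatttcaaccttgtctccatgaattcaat
HOXD1, chr2:176188418-176188667, plus strand: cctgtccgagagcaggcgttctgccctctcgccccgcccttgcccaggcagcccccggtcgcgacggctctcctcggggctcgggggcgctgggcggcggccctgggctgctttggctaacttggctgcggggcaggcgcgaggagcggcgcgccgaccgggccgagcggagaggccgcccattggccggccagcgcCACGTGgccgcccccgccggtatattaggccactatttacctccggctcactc
Promoters were read for these 3 of the 10 genes. The GENCODE v29 span of HOXA2 starts 128 bases upstream of the RefSeq start, so its E-box lies inside that span. HOXA13 had 0 E-boxes, HOXA2 had CATGTG at 51 to 46 bases before its RefSeq start, and HOXD1 had CACGTG at 53 to 48 bases before. Of 35116 promoters of the same length, 61.8% held at least 1 CANNTG, which reads the same on both strands. A site for HOX with PBX, TGATNNAT on either strand, was found in HOXA2 alone of the 3 and in 6.47% of promoters. The antioxidant element TGACNNNGC on either strand was in 0 of the 3 and in 10.9% of promoters. GC content was 78% for HOXA13, 47.2% for HOXA2 and 74.8% for HOXD1.

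Genes that act with HOX proteins or on their clusters were read from lists of named genes. Of 11 cofactor genes of the PBX, MEIS and related families, 3 were in the RSL3 table and passed the limma test, 1 as higher and 2 as lower, where 82% of all tested genes passed. MEIS3 averaged 197 ± 70.3 counts with RSL3 and 103 ± 17.1 with DMSO (log2 fold change 0.88, SE 0.31, limma adjusted p = 0.0408). MEIS2 had -1.01 (SE 0.39, limma adjusted p = 0.0463), and its groups overlapped. None of the 11 was in the oeATOH8 table.

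Of 23 Polycomb genes, 5 were in the RSL3 table, of which 3 rose and 1 fell by the limma test, a share near the 82% of all tested genes. The chromobox genes CBX7 (log2 fold change 0.99, SE 0.25, adjusted p = 0.0258), CBX2 (0.83, SE 0.31, adjusted p = 0.0442) and CBX8 (0.66, SE 0.24, adjusted p = 0.0425), readers of methylated histone H3, rose. RNF2, the ubiquitin ligase of the complex, averaged 49.0 ± 11.1 with RSL3 and 111 ± 46.4 with DMSO (-1.09, SE 0.39, adjusted p = 0.0421). RING1, its relative, had a value of 0.60 (SE 0.25) and missed the threshold (adjusted p = 0.0516). With oeATOH8, 2 of the 23 were listed. PHC2, a polyhomeotic subunit, rose by 1.10 (SE 0.05, edgeR adjusted p = 5.98e-09) and CBX2 fell by 1.26 (SE 0.28, edgeR adjusted p = 0.00121, or 0.0639 over all annotated genes). Of 13 trithorax genes, KMT2C was listed with RSL3 (-1.42, SE 0.68) and missed the threshold (limma adjusted p = 0.0722).

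Of 18 genes of the retinoic acid pathway, 3 were listed with RSL3 and 2 with oeATOH8. By the tests used, 82% of all tested genes passed with RSL3 and 100% with oeATOH8. CYP26A1, which breaks down retinoic acid, averaged 7.53 ± 4.65 with RSL3 and 31.4 ± 7.57 with DMSO (-2.07, SE 0.51, limma adjusted p = 0.0256, or 0.883 over all annotated genes). It averaged 12.6 ± 7.72 in oeATOH8 and 40.0 ± 1.44 in oeCTRL (-1.66, SE 0.45, edgeR adjusted p = 0.00375, or 0.198 over all annotated genes). CYP26B1, a related enzyme, fell to 190.4 ± 29.4 with RSL3, against 372 ± 24.2 with DMSO (-0.97, SE 0.21, limma adjusted p = 0.0183, or 0.633 over all annotated genes). CRABP2, which carries retinoic acid to its receptors, fell by 1.01 in oeATOH8 (SE 0.11, edgeR adjusted p = 3.49e-06). RXRB had 0.66 with RSL3 and missed the threshold (limma adjusted p = 0.0511). Of 4 genes that HOXA13 binds or regulates in mouse limb and genital development (BMP2, BMP7, EPHA7 and ALDH1A2), BMP7 was listed with RSL3, with 2.05 counts on average against 14.0 with DMSO (-2.33, SE 0.53, limma adjusted p = 0.0214), and none was in the oeATOH8 table.

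The genes most like HOXA13 over the 6 overexpression libraries were REC8, FGFBP1, OAS2, CAMKV and FLRT3. Likeness was the root mean square difference of centred log2 scaled counts, which was 0.29 for REC8 and 0.42 for FLRT3, among 1044 named rows with a mean of at least 50. For HOXD1 over the 6 RSL3 and DMSO libraries, TGFB1I1 (0.14), CPT1C (0.17), HIVEP3 (0.21) and GPRC5B (0.22) were among the 5 most like it of 1378. All the genes named here fell in the same comparison as the HOX gene, which this measure selects for.

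Markers of cell types were checked in the same tables. Epithelial genes CDH1, EPCAM and CLDN7 (3 of 6 listed) summed to 195 to 393 counts with RSL3 and 1005 to 1053 with DMSO, and CDH1 and KRT8 (2 of 6) to 5980.5 to 6704 in oeATOH8 and 17132 to 17480 in oeCTRL. Of 4 mesenchymal genes FN1 was listed in both tables, at 20.3 to 81.6 with RSL3 and 110 to 204 with DMSO, and at 496 to 533 in oeATOH8 and 1033 to 1139 in oeCTRL. Of 3 leukocyte genes, CD68 was listed with RSL3, at 1498 to 4290.3 against 787 to 1607 with DMSO. Of 5 erythroid genes, HBB, HBA1 and HBA2 were listed with oeATOH8, and summed to 3224 to 55109 in oeATOH8 and 4.11 to 12.6 in oeCTRL. Of 4 fibroblast genes, COL1A2 was listed with oeATOH8, at 73.9 to 111 against 0 to 5.14 in oeCTRL. None of 5 luminal prostate genes or 3 endothelial genes was listed in either table, so the prostate label could not be checked by level. The part of these markers in the HOX values was not tested.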

How the data were processed

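RNA of DU145 was measured in 12 libraries, whose titles give the groups. Of the ATOH8 table, columns starting OE were taken for oeATOH8 and those starting NC for oeCTRL. Per the submitters' processing notes, fastp, HISAT2, StringTie and DESeq2 were used, with build hg38 (GRCh38); versions and roles are not given in the sources used here. Both tables appear to hold only genes the authors called changed. The authors deposited the RSL3 table as a signal per gene, and 100% of values in each library were whole multiples of 1 step within 0.001 reads, as counts divided by a size factor are. Values of the ATOH8 table were deposited as raw counts. Listed reads ranged from 2523743 to 3096832 per library in the first table and from 1508188 to 2226518 in the second; these are not library depths. The labels do not say that replicates were separate cultures, so the spread behind each p-value is that among these libraries and could be technical.

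RSL3 rows were named from RefSeq by position and strand (at least 0.5 of the RefSeq span): 1045 had the same span, 716 overlapped, 27 were named from GENCODE v29 and 22 stayed unnamed. Of 1152 Ensembl identifiers, 1137 had a symbol; 272 rows were loci the authors assembled. RSL3 values were tested by limma 3.58.1 with a variance trend, as log2(value + 1). Low genes were dropped with filterByExpr of edgeR at a minimum count of 10 and a total of 15. ATOH8 counts were tested with edgeR 4.0.16 (quasi-likelihood), with libraries scaled within groups by the median ratio and groups scaled so that the gap in log2 ratios around 0 was centred (1.00 to either side), which assumes symmetric fold limits. Both tests are two-sided; p-values were adjusted by Benjamini-Hochberg over the tested rows, with a threshold of 0.05. DESeq2 1.42.0, edgeR on recovered reads, other scalings, pseudocount and filter, a replicate block and left-out libraries were alternatives, under R 4.3.3. In the RSL3 table, libraries with the same number deviated together from their group means (r of 0.61, 0.47 and 0.44), so the block was used there as a pairing, although replicates 2 and 3 correlated as highly across numbers (up to 0.47 and 0.50). It changed no HOX call. The code was tested on simulated data. Values were kept apart by table, since the tables were normalised separately.

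The named genes were every listed HOX gene, ATOH8, up to 4 members of each list by smallest adjusted p, rows within 100 kb of a HOX cluster, and the 5 genes most like the HOX gene of largest change in each table. The HOX genes and lists were chosen with earlier results of these data known. Some genes and sequences that this rule names are not reported here.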

Additional observations from a re-analysis of the deposited data

How the results depend on the processing

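The HOX genes kept their direction in all 158 recomputed values, 96 on the same side of the threshold and 62 no longer past it; where only the adjustment, the block or the filter changed, the fold is the same or nearly so by construction. With RSL3, 7 of 7 passed with edgeR, DESeq2, another pseudocount, no filter or the replicate block, and 6 with TMM over the listed genes. Leaving out 1 library or replicate 1 of both groups left 0 to 7, and of all tested genes 6 to 1713, against 1421. TMM left 926 of these. With adjustment over all annotated genes, limma passed 0 HOX genes and 0 of all tested genes, and with the block 0 and 2. By edgeR those numbers were 0 and 0, and by DESeq2 0 and 193. The cause was not tested, except that counting more genes as tests raises every adjusted p by construction. The replicate block left 1720 of all tested genes in the RSL3 table. In the ATOH8 table, equal replicate numbers correlated at 0.048 to 0.088, against 0.0031 at most across numbers. The labels do not say what libraries of equal number share, and this was not tested. The block left the 3 HOX genes and all 1424 rows past the threshold. HOXA5 was lost with DESeq2 size factors over the listed genes, a scaling that takes called genes as unchanged on balance. Leaving out a library, with the scale kept, left all 3 HOX genes past the threshold. Leaving out replicate 1 of both groups and the tool-specific bounds were chosen after seeing the data. HOXD1 with RSL3 and HOXA13 with oeATOH8 rest on 7 to 19 reads a library, and the sources used give no library depth.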

Other observations

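Homeobox genes outside the HOX clusters were in both tables as well, 8 of 95 named genes with RSL3 and 4 of 95 with oeATOH8. With RSL3, 5 rose and 2 fell by the limma test, where 82% of all tested genes passed (43.1% higher and 38.9% lower). ALX4, a factor of skull and limb patterning, averaged 62.3 ± 22.9 counts with RSL3 and 14.4 ± 2.25 with DMSO (log2 fold change 1.99, SE 0.36, limma adjusted p = 0.0143). DLX3, needed for hair and teeth, averaged 26.5 ± 7.43 with RSL3 and 3.86 ± 2.54 with DMSO (2.64, SE 0.54, limma adjusted p = 0.0177). LHX1, a factor of kidney and head development, fell to 125 ± 15.6 with RSL3, against 218 ± 6.36 with DMSO (-0.81, SE 0.21, limma adjusted p = 0.0264). IRX5 averaged 21.4 ± 5.13 with RSL3 and 7.62 ± 2.00 with DMSO (1.38, SE 0.38, limma adjusted p = 0.0302).

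With oeATOH8, PITX1, a factor that specifies the hindlimb, averaged 4693 ± 246 scaled counts, against 1640 ± 130 in oeCTRL (1.52, SE 0.08, edgeR adjusted p = 1.08e-08). DLX4 and DLX6 fell by 1.27 and 1.07 (edgeR adjusted p = 0.000183 and 0.00311, or 0.00969 and 0.164 adjusted over all annotated genes). ZEB2, a repressor of epithelial genes, rose by 1.28 (SE 0.42, edgeR adjusted p = 0.0112, or 0.593 adjusted over all annotated genes).

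The antisense transcript HOXC13-AS overlaps the edge of the HOXC cluster, in which no HOX gene was listed. It had 34.8, 32.8 and 48.8 counts with RSL3 and 8.79, 14.5 and 13.1 with DMSO (1.60, SE 0.35, limma adjusted p = 0.0192). LINC02381, 70.0 kb from the cluster, had 5.79, 14.1 and 4.69 with RSL3 and 39.6, 38.9 and 36.7 with DMSO (-2.24, SE 0.44, limma adjusted p = 0.0166).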
